A study of Homo sapiens with 18 samples.

Results

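MAVER cells, a human cell line from mantle cell lymphoma, were treated for 6 h with either of 2 drugs, and the transcript levels under the drugs were set against each other. The first group, KPT, received 1.5 µM of a compound taken to be selinexor, which blocks nuclear export through XPO1. The second, IB, received 0.4 µM of a compound taken to be ibrutinib, which blocks BTK, a kinase of B cell receptor signalling. Both readings rest on the series description, which names these inhibitors. The comparison takes 6 of the series' 18 libraries, with n = 3 in each group, and the 11099 genes of 25369 whose mean over the 12 MAVER libraries reached 10 normalized counts. The 3 MAVER libraries with the solvent DMSO at the same time show where each difference lies relative to solvent. All 3 groups come from the same line and carry no other stated treatment. Each drug was given at a single dose, so the differences are between these treatments and not between potencies. The sources used here do not say how the replicate cultures were kept apart, so a p-value reflects the spread among these libraries, which may be technical. A level here is relative to the rest of a library's RNA, and a change in every cell cannot be told apart from a change in the share of cells that express a gene.

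XPO1, also called CRM1, carries proteins with a leucine-rich export signal out of the nucleus together with the small GTPase Ran in its GTP-bound form. Its cargoes include tumour suppressors, ribosomal subunits and the NF-kB inhibitor IkB-alpha, the product of NFKBIA, so a blocked exporter keeps these proteins in the nucleus. BTK sits below the B cell receptor: SYK and LYN activate it, it activates the phospholipase PLCG2, and through protein kinase C beta (PRKCB), BCL10 and MALT1 the signal reaches NF-kB. In mantle cell lymphoma this receptor signalling and the overexpressed cyclin D1 are well-known features. These sentences are background and rest on no value of the series.

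The IB libraries held 8415254 to 9810362 reads and the KPT libraries 5374226 to 7924550, so the KPT values carry more counting error. Libraries of the same group correlated at 0.991 or more across genes on the log2 scale. KPT and IB libraries correlated with each other at 0.976 or less, and DMSO and IB libraries at 0.987 to 0.988. RNA45S5, the ribosomal RNA precursor, stood at 53819 and 66933 normalized counts in KPT libraries A and C, at 9092 in KPT library B and at 7919 to 20743 in the IB libraries. Results that move without the former pair are given with that value; the lone KPT library is then assumed to vary like the other groups. B cell markers summed to 29202 to 30226 normalized counts with IB and 31789 to 32889 with KPT, with 13 of 14 tested and CR2 at 0 in all 6 libraries. T and NK cell markers summed to 99.2 to 103 with IB and 129 to 164 with KPT, with 10 of 16 at 0 in all 6. Most of that sum was PRF1, with a mean of 84.7 with IB and 122 with KPT, while CD3D, CD3E and CD2 were at 0. Myeloid markers summed to 29.1 to 31.9 with IB and 46.3 to 58.6 with KPT, with 8 of 14 at 0. Epithelial and stromal markers summed to 559 to 628 with IB and 614 to 663 with KPT, with 7 of 14 at 0. The part of these markers in the results below was not tested.

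The drugs left a broad difference of mostly small size. Levels are given in normalized counts, in the order of libraries A, B and C where 3 values stand together, and differences as log2, KPT minus IB, with their standard error. With limma and Benjamini-Hochberg adjustment over all genes, 3002 genes (27%) were higher with KPT than with IB and 3127 (28.2%) were lower, 55.2% in all. The libraries of the 2 groups did not overlap for 6480 genes (58.4%), with KPT above IB for 28.9% of all genes and below it for 29.4%. At least 2-fold differences were called for 252 genes higher with KPT (2.27%) and 148 lower (1.33%). Of the 6129 called genes, 4100 differed by under 0.5 on the log2 scale, and the median difference over all tested genes was 0.01. The solvent level was nearer to the IB level than to the KPT level for 200 of the 252 genes at least 2-fold higher and 110 of the 148 at least 2-fold lower. These shares, 79.4% and 74.3%, are near to or under the 80.6% (4938 genes) of all called genes. Counts of gene lists below are to be read against the 27% and 28.2% of all genes.

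**Figure D1:**
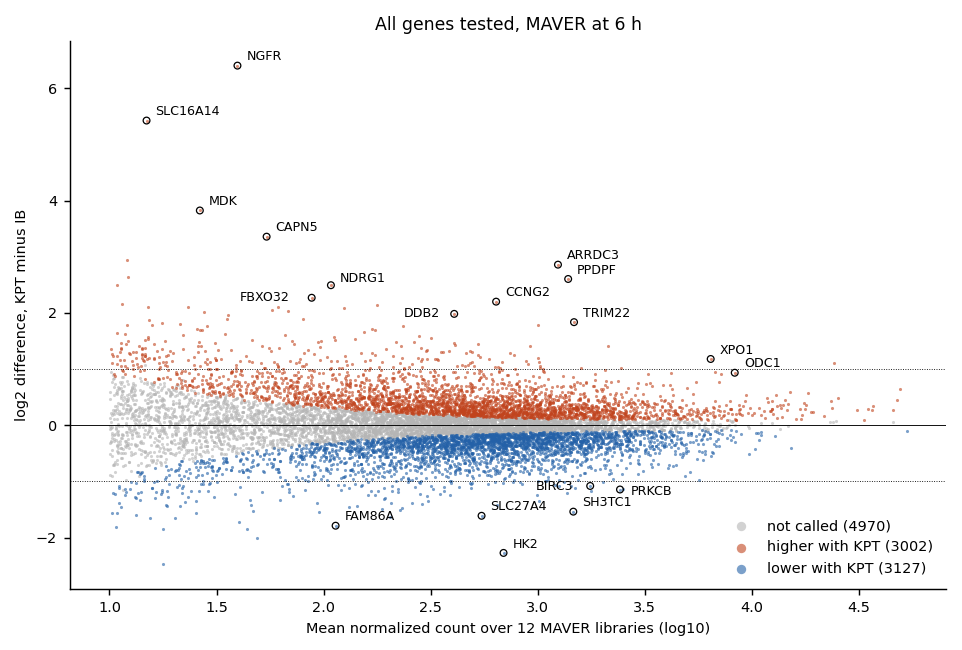
Each point is a gene tested in MAVER; the horizontal axis is its mean normalized count over 12 libraries on a log10 scale and the vertical axis is the log2 difference, KPT minus IB, on the log2(normalized count + 1) scale. Red and blue points passed an adjusted p of 0.05, dotted lines mark a 2-fold difference, and most called points lie between those lines.

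**Figure D2:**
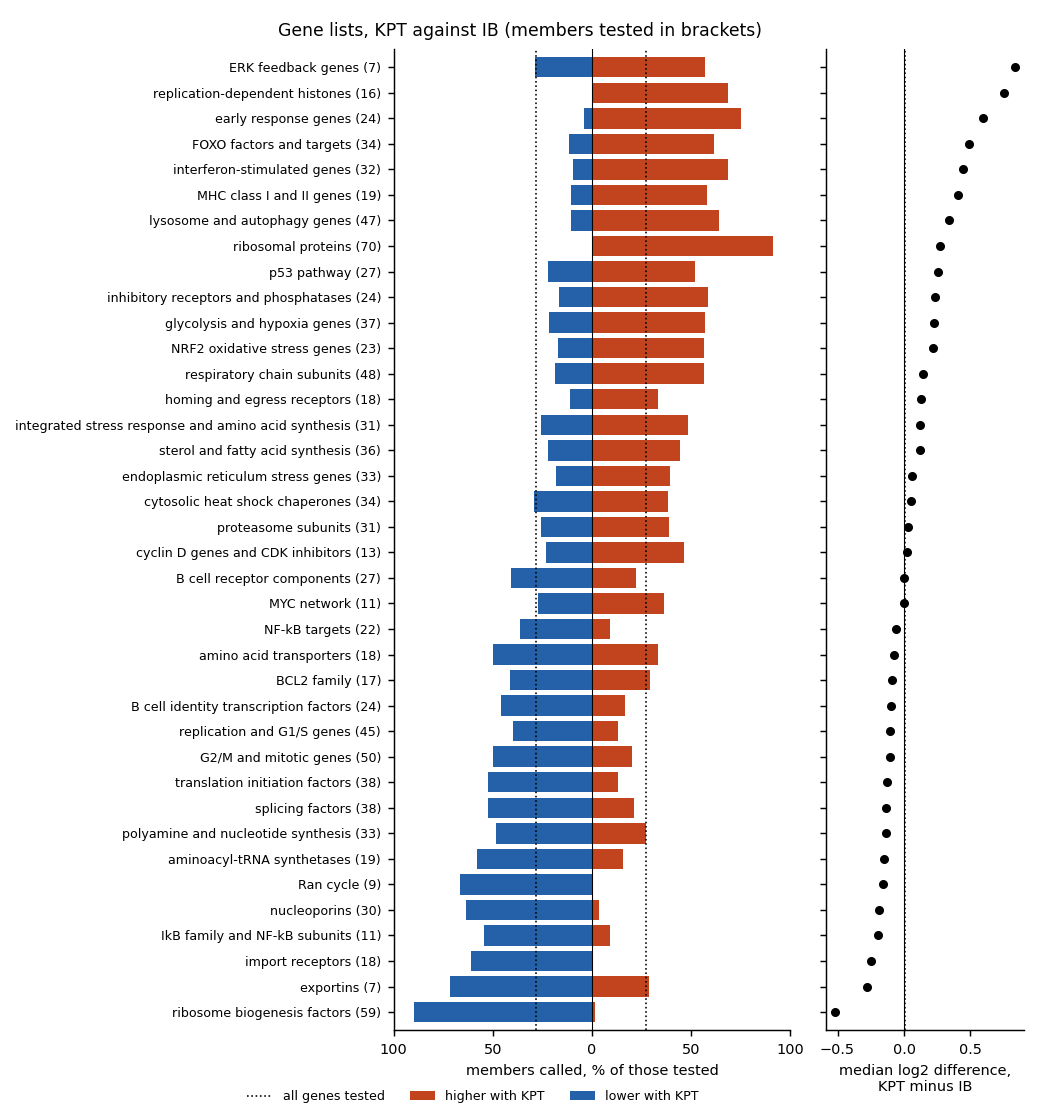
Left, the share of each list's tested members called higher (red, to the right) or lower (blue, to the left) with KPT than with IB, in percent, with dotted lines at the 27% and 28.2% of all genes tested. Right, the median log2 difference of the list; ribosome biogenesis factors stand lowest, and among lists with at least 7 tested members ribosomal proteins have the largest share of members higher (64 of 70). The histone list is drawn with all 16 tested members.

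The transcript of the exporter that KPT targets was higher with KPT, and most of the remaining transport machinery was lower. XPO1 stood at 11624, 11159 and 10947 normalized counts in KPT libraries A, B and C, and at 4878, 4770 and 5247 with IB. The DMSO libraries held 5229, 5134 and 5333. The IB and DMSO libraries overlap and every KPT library lies above them. The difference between the drugs was 1.18 ± 0.04 (log2 ± SE, adjusted p = 1.34e-24). XPO5, the exporter of microRNA precursors, went the other way, with 913, 898 and 898 with KPT against 1906, 1967 and 1985 with IB and 1889 to 2028 with DMSO (-1.11 ± 0.05, adjusted p = 5.39e-21). CSE1L, which returns importin alpha to the cytoplasm, was lower by -0.36, XPO4 by -0.33, XPO7 by -0.28 and XPOT, the transfer RNA exporter, by -0.22. XPO6, the exporter of actin, was higher by 0.18, a call that was lost without KPT libraries A and C (adjusted p = 0.0988). All 7 exportins were therefore called, 2 higher and 5 lower.

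Among the import receptors, 11 of 18 tested members were lower with KPT and 0 higher, with a median of -0.25. KPNA2, an importin alpha that binds classical import signals, held 1417, 1323 and 1353 with KPT and 2523, 2423 and 2428 with IB, beside 2445 to 2481 with DMSO. The groups do not overlap, and the difference was -0.85 ± 0.04 (adjusted p = 2.08e-19). KPNA4 (-0.62), IPO4 (-0.60) and KPNB1 (-0.46), the importin beta that carries the importin alpha proteins, were lower too. In the Ran cycle 6 of 9 members were lower and 0 higher (median -0.16). RANGAP1, which triggers GTP hydrolysis on Ran in the cytoplasm, held 2243, 1987 and 2157 with KPT and 3782, 3701 and 3407 with IB (-0.77 ± 0.05, adjusted p = 7.53e-17). RANBP3, a cofactor of XPO1, was lower by -0.41 and RCC1, which loads Ran with GTP, by -0.26. RANBP1 (-0.17), RANBP2 (-0.16) and RAN itself (-0.14) passed the test in all 6 libraries, but without KPT libraries A and C their adjusted p was 0.143, 0.108 and 0.303, and 3 of the 9 members were then called. The RANBP1 call was also lost without KPT library A (0.0571). NUTF2 (-0.11), RANGRF (-0.14) and RANBP10 (0.09) were not called. Nucleoporins, the proteins of the nuclear pore, were lower for 19 of 30 and higher for 1 (median -0.19), with NUP93 at -0.54, NUP210 at -0.52 and NUP188 at -0.40.

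**Figure D3:**
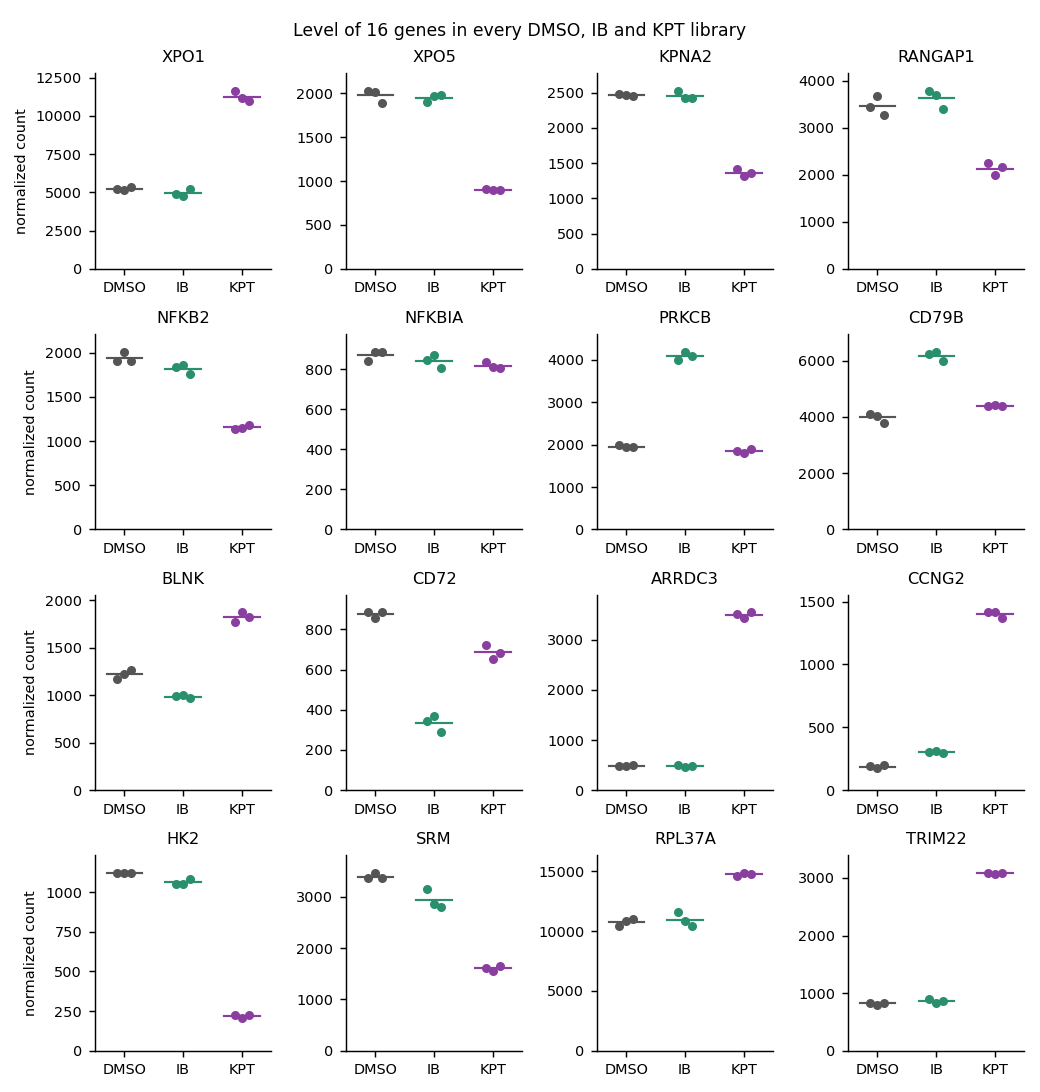
Normalized counts of 16 genes in every DMSO, IB and KPT library of MAVER; points are the 3 libraries of a group, the line is their mean, and each axis starts at 0. XPO1, ARRDC3, CCNG2 and HK2 differ between KPT and both other groups, while PRKCB and CD79B differ between IB and both other groups.

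The transcripts of the NF-kB system were lower with KPT for 6 of 11 members and higher for 1, with a median of -0.19. NFKBIA did not pass the test. Its levels were 837, 810 and 806 with KPT, 847, 873 and 806 with IB and 844, 889 and 886 with DMSO. The KPT and IB values overlap, and the 95% interval of the log2 difference reached from -0.16 to 0.08 (adjusted p = 0.579). NFKBIE and NFKBIB, which encode the other classical inhibitors IkB-epsilon and IkB-beta, were lower. NFKBIE held 249, 242 and 235 with KPT, 380, 409 and 380 with IB and 420 to 478 with DMSO (-0.68 ± 0.08, adjusted p = 3.42e-09). NFKBIB held 265, 276 and 303 with KPT against 419, 447 and 384 with IB (-0.57 ± 0.08, adjusted p = 1.35e-07). In both genes all KPT libraries lie below all IB libraries.

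Of the DNA-binding subunits, NFKB2, which encodes p100 and p52 of the alternative pathway, held 1139, 1150 and 1181 with KPT, 1836, 1860 and 1759 with IB and 1903 to 2011 with DMSO (-0.65 ± 0.05, adjusted p = 2.36e-14). Its partner RELB was lower by -0.60 ± 0.06, with 461 to 524 against 702 to 773, and NFKB1, the precursor of p50, by -0.19 ± 0.04. BCL3, a nuclear member of the IkB family, was lower by -0.60 ± 0.15. RELA (-0.05), NFKBIZ (-0.09) and NFKBID (0.01) were not called. REL was the member called higher, and here the IB group is the one away from solvent: it held 898, 853 and 812 with KPT, 798 to 886 with DMSO and 628, 640 and 736 with IB (0.36 ± 0.06, adjusted p = 6.56e-06). Among 22 tested NF-kB targets, 8 were lower and 2 higher (median -0.06), so the share lower was above that of all genes and the share higher below it. BIRC3, an inhibitor of apoptosis, held 1280, 1417 and 1276 with KPT and 2695, 2819 and 2890 with IB, with DMSO between them at 1797 to 1900 (-1.08 ± 0.05, adjusted p = 3.61e-20). CXCR5 (-0.65), CCR7 (-0.32), PTPN1 (-0.30) and TNIP1 (-0.26) were lower, and GADD45B, a stress-induced gene, was higher by 0.68. CCR7 held 1059 to 1128 with KPT, 1272 to 1517 with IB and 975 to 993 with DMSO. TNIP1 held 1723 to 1804 with KPT, 2050 to 2156 with IB and 1745 to 1886 with DMSO. In CCR7 and TNIP1 the IB group is therefore the one further from solvent.

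A search of RefSeq promoters (GRCh38.p14; 250 bases before to 50 after the start, 300 in all, both strands) looked for NF-kB letters, GGGA, any 4 bases and CC, and found them at 8 of the 9 matched IkB and NF-kB subunit genes (88.9%) and 30.6% of all tested genes with a promoter. For 6 of the 8 a match lay before the start. NFKBIA and REL are printed because the former was not called while the latter was, and both carry the letters within 250 bases of the start. Capitals mark the match, which on the printed strand can read as its reverse complement, and in REL a match on each strand overlaps the other.
NFKBIA, chr14:35404750-35404999, minus strand: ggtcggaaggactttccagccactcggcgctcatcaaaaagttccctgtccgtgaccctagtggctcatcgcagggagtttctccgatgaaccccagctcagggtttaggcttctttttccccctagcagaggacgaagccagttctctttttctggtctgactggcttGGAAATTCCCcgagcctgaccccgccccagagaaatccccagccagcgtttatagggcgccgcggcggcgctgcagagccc
REL, chr2:60881324-60881573, plus strand: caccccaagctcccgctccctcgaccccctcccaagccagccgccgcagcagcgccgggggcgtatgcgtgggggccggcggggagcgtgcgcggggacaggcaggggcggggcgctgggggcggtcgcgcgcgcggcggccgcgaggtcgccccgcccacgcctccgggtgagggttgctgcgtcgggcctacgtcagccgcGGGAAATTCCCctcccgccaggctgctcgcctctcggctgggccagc
The capitals begin 81 bases before the start in NFKBIA and 47 in REL. A match describes the letters and says nothing of binding in these cells.

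The B cell receptor pathway differed by member. Of 27 tested components, 11 were lower with KPT and 6 higher, with a median of 0.00. PRKCB, which acts below BTK and PLCG2, held 1860, 1794 and 1905 with KPT and 1992, 1934 and 1941 with DMSO, but 4005, 4194 and 4091 with IB. The IB libraries stand apart from both other groups, and the difference KPT minus IB was -1.14 ± 0.04 (adjusted p = 1.33e-23). CD79B, a signalling chain of the receptor, was also highest with IB, with 4374, 4404 and 4373 with KPT, 3771 to 4118 with DMSO and 6218, 6315 and 5988 with IB, the KPT libraries lying above solvent here (-0.49 ± 0.04, adjusted p = 1.72e-13). Its partner chain CD79A differed on the KPT side: 6755, 6119 and 6793 with KPT against 5160, 5089 and 4738 with IB and 4886 to 5036 with DMSO (0.39 ± 0.04, adjusted p = 1.2e-09). BLNK, the adaptor that brings BTK to PLCG2, held 1765, 1871 and 1819 with KPT and 986, 999 and 965 with IB, and DMSO lay between at 1172 to 1264 (0.89 ± 0.05, adjusted p = 2e-18). VAV2, an exchange factor for small GTPases, was lower on the KPT side, with at most 102 against 215 to 238 with IB and 211 to 241 with DMSO (-1.17 ± 0.11). PIK3CD, the B cell phosphoinositide 3-kinase, was lower by -0.40 ± 0.05, with 2991 to 3147 with KPT against 3961 to 4238 with IB. The DMSO libraries held 3079 to 3339, so the PIK3CD difference is on the IB side.

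The transcript of the IB target itself differed little. BTK held 2805, 2846 and 2765 with KPT, 2580, 2672 and 2483 with IB and 2783 to 2907 with DMSO. The difference of 0.12 ± 0.04 passed the test (adjusted p = 0.0148), but not without KPT libraries A and C (0.0623), KPT library B (0.0503) or IB library C (0.0794).

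The list of inhibitory receptors and phosphatases also holds related genes that are neither, such as FCRLA, CBLB and DOK3. It was higher with KPT for 14 of 24 members and lower for 4, with a median of 0.24. CD72, an inhibitory coreceptor of B cells, held 724, 653 and 682 with KPT and 345, 367 and 290 with IB, and the DMSO libraries were highest at 857 to 885 (1.04 ± 0.07, adjusted p = 3.06e-16). FCRLA held 7004 to 7218 with KPT, 3549 to 3759 with IB and 5751 to 5973 with DMSO (0.96 ± 0.04). FCRL5 held 610 to 649 with KPT, 345 to 370 with IB and 588 to 651 with DMSO (0.80 ± 0.07). In these 3 genes IB lies below solvent. CBLB, a ubiquitin ligase that restrains receptor signalling, instead lay above solvent with KPT, with 866, 799 and 728 against 308, 330 and 369 with IB and 347 to 423 with DMSO (1.25 ± 0.08, adjusted p = 4.87e-17). The adaptor DOK3 was higher by 0.77 ± 0.05 and LAIR1 lower by -0.60 ± 0.06.

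**Figure D4:**
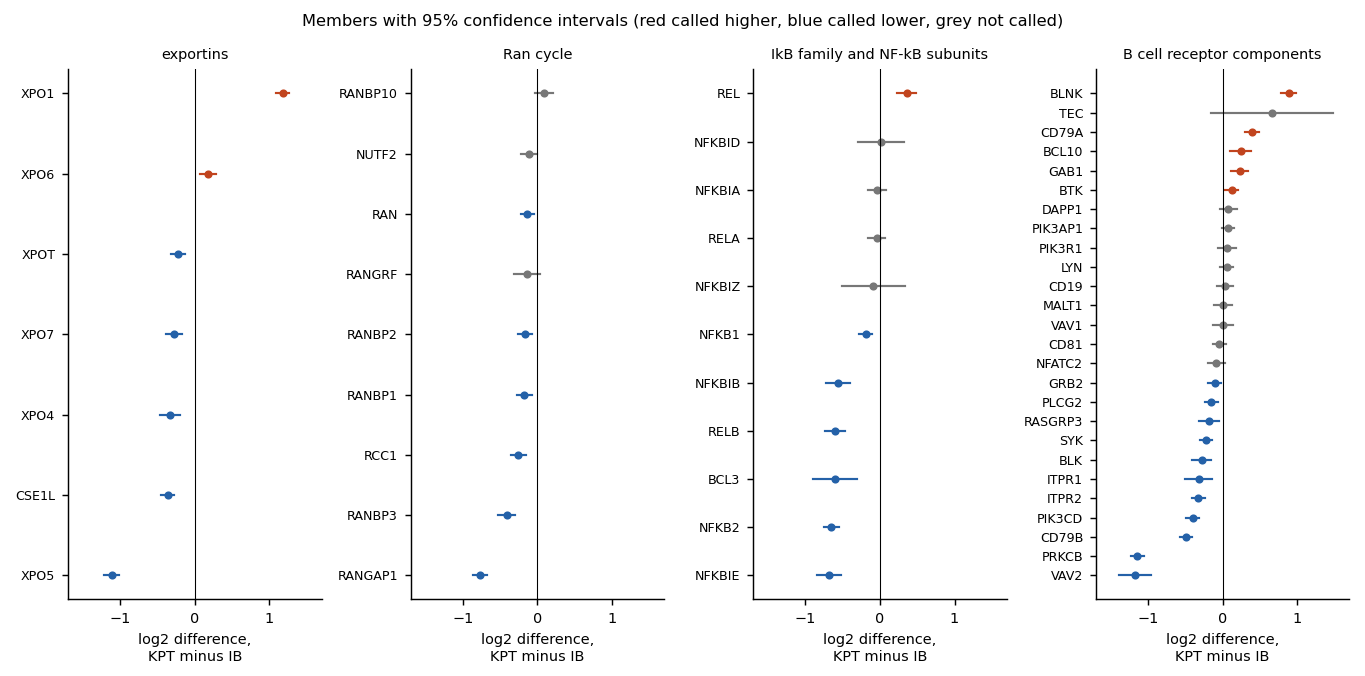
Points are the log2 differences, KPT minus IB, of tested members of 4 lists, and lines are their 95% confidence intervals; red members were called higher, blue lower and grey not called. NFKBIA lies at -0.04 while NFKBIE, NFKB2, BCL3, RELB and NFKBIB lie between -0.68 and -0.57, and PRKCB and VAV2 lie below -1.

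Early response genes, which respond within minutes to receptor signals, were higher with KPT for 18 of 24 and lower for 1 (median 0.60). RGS2, a brake on G protein signalling, held 298, 282 and 285 with KPT, 130, 120 and 96.6 with IB and 219 to 267 with DMSO (1.32 ± 0.09, adjusted p = 2.29e-15). RGS1 held 287, 221 and 212 with KPT, 89.6, 114 and 88.1 with IB and 68.6 to 87.6 with DMSO (1.29 ± 0.13, adjusted p = 3.84e-11). The groups do not overlap in either gene, and the solvent value is near KPT in the first and near IB in the second. TNFSF9 (0.98), IER2 (0.96), KLF10 (0.65) and BTG1 (0.43) were also higher. EGR1 and NR4A1, chosen after their values were seen, were both lower than solvent with IB. EGR1 held 43.3, 25.7 and 30.5 with DMSO, 8.97, 3.56 and 2.49 with KPT and 0.963, 0 and 0 with IB, so both drug groups lay far below solvent, at few reads. NR4A1 held 253, 254 and 235 with KPT, 127, 141 and 124 with IB and 247 to 288 with DMSO (0.92 ± 0.10).

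Of 7 tested ERK feedback genes, 4 were higher and 2 lower (median 0.84). DUSP1, a phosphatase of MAP kinases, held 131, 134 and 142 with KPT, 41.4, 29.1 and 38.2 with IB and 46.1 to 50.7 with DMSO (1.89 ± 0.16, adjusted p = 5.24e-13). DUSP10 was higher by 0.97 and SPSB1 by 1.79, the latter at 19.9 to 21.5 with KPT and 2.89 to 8.94 with IB. SPSB1 is counted in this list but is not an established ERK feedback gene. DUSP7 was lower by -0.58. DUSP2 was lower by -0.48, a call lost without KPT libraries A and C (adjusted p = 0.0863). DUSP5 was higher by 0.84 at 10.8 to 12.5 against 4.47 to 7.43 normalized counts, and it lost its call in 9 of 21 other settings. These include the fits without KPT library B (adjusted p = 0.0514), KPT library C (0.0636) or IB library B (0.117). Among them is also the fit without KPT libraries A and C, where the DUSP5 difference was 0.86.

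FOXO factors and their targets were higher with KPT for 21 of 34 tested members and lower for 4, with a median of 0.49. FOXO proteins are transcription factors that AKT keeps out of the nucleus and that XPO1 is known to export. ARRDC3, an arrestin-like adaptor, held 3518, 3435 and 3549 with KPT, 502, 457 and 486 with IB and 483, 475 and 504 with DMSO. The IB and DMSO libraries overlap, and KPT was higher than IB by 2.86 ± 0.06 (adjusted p = 2.05e-33). CCNG2, an atypical cyclin of arrested cells, held 1415, 1415 and 1368 with KPT, 300, 313 and 298 with IB and 174 to 198 with DMSO, so both drugs lay above solvent and KPT further (2.20 ± 0.07, adjusted p = 5.12e-27). FBXO32, a ubiquitin ligase subunit, held 204, 206 and 209 with KPT and 43.3, 40.2 and 42.5 with IB (2.27 ± 0.16, adjusted p = 1.44e-15). TSC22D3 (1.31), MXI1 (1.13) and S1PR1 (0.65) were higher as well. The 4 lower members were IL7R (-1.34), PIK3IP1 (-0.54), RAG1 (-0.47) and BCL2L11 (-0.19). FOXO4 (1.08) and FOXO3 (0.33) were higher, and FOXO1 (-0.02) was not called.

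TXNIP, an arrestin-like inhibitor of thioredoxin, is shown because its promoter holds the FOXO letters GTAAACA before the start. It held 3345, 3318 and 3235 with KPT, 2324, 2444 and 2419 with IB and 2054 to 2159 with DMSO (0.46 ± 0.04, adjusted p = 7.43e-12). The letters, sought on both strands, were present in 2.2% of all promoters matched, in 3.45% of those of genes higher with KPT, in 1.55% of those lower and in 4 of 29 on the FOXO list (13.8%). Of those 4, 2 held them before the start.
TXNIP, chr1:145996580-145996829 of GRCh38.p14, minus strand: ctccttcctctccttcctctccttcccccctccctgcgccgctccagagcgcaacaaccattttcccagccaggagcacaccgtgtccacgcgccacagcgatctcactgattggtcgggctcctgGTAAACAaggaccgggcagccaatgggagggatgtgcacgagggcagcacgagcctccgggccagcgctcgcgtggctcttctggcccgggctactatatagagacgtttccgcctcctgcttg
The capitals mark the match, which begins 124 bases before the start.

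Of the cyclin D genes, CDK inhibitors and related genes, 6 of 13 were higher with KPT and 3 lower (median 0.02). CDKN1A, which encodes p21, held 481, 488 and 468 with KPT, 275, 317 and 263 with IB and 624 to 636 with DMSO, so both drugs lay below solvent and IB further (0.75 ± 0.07, adjusted p = 1.04e-11). CDKN1B, which encodes p27, was higher by 0.42 ± 0.05, with 1332 to 1406 against 996 to 1076, CDKN1C by 0.58, CDKN2D by 0.70 and the retinoblastoma gene RB1 by 0.26. For CDKN1C, CDKN2D and RB1 the KPT minus DMSO difference did not pass the test (limma adjusted p = 0.214, 0.135 and 0.0595). IB lay below solvent in each of them. SOX11, a transcription factor that marks mantle cell lymphoma, was higher by 0.64 ± 0.06, with 1079 to 1090 with KPT, 674 to 734 with IB and 605 to 668 with DMSO. CCND1, the cyclin D1 gene, held 53835, 52212 and 53282 with KPT against 57590, 56868 and 57088 with IB. The difference of -0.11 ± 0.04 (adjusted p = 0.0104) was lost with no filter on low values (0.0554) and with equal upper quartiles (0.084). CDK4 was lower by -0.14 and CDK6 by -0.94 at 7.17 to 13.1 against 20.1 to 21.2 normalized counts; the CDK6 call was lost with DESeq2 (0.0524) and without KPT libraries A and C (0.153). RBL1 (-0.15), CCND3 (-0.13), RBL2 (0.02) and CDKN2C (-0.01) were not called. Replication and G1/S genes were lower for 18 of 45 and higher for 6 (median -0.10), with the phosphatase CDC25A at -0.79, CLSPN at -0.60 and POLA2 at -0.53. E2F7, a repressor of the same programme, was higher by 0.41. Without KPT libraries A and C, 3 members were higher. CDC25B, of the G2/M list, was lower by -0.46, but both drugs lay above solvent and IB further. It held 4341 to 4743 with KPT, 5926 to 6457 with IB and 3992 to 4068 with DMSO. TACC3 (-0.76), CCNB1 (-0.43) and TOP2A (-0.42), of the same list, were lower too, with the DMSO libraries between the IB and KPT libraries. G2/M and mitotic genes, these members included, were lower for 25 of 50 and higher for 10 (median -0.11). Those higher numbered 6 without KPT libraries A and C.

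The p53 pathway list was higher for 14 of 27 and lower for 6, with a median of 0.26. DDB2, a sensor of ultraviolet damage, held 925, 906 and 979 with KPT, 238, 236 and 235 with IB and 251 to 274 with DMSO (1.98 ± 0.08, adjusted p = 5.01e-23). TRIM22, an antiviral ubiquitin ligase that p53 and interferon both induce, held 3086, 3071 and 3083 with KPT, 891, 835 and 861 with IB and 802 to 834 with DMSO (1.84 ± 0.05, adjusted p = 3.55e-29). ZMAT3 was higher by 0.66. AEN, an apoptosis-enhancing nuclease, was lower, at 513, 582 and 591 with KPT against 1460, 1431 and 1407 with IB (-1.35 ± 0.06, adjusted p = 3.95e-22). C12orf5, the gene now called TIGAR, a brake on glycolysis, held 118 to 122 with KPT and 306 to 340 with IB (-1.41 ± 0.08). BAX was lower by -0.53 ± 0.07, so known p53 targets lay on both sides.

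In the BCL2 family 5 of 17 were higher and 7 lower (median -0.09). The death-promoting BH3-only genes BBC3 (0.94 ± 0.19), BMF (0.68 ± 0.08) and PMAIP1 (0.47 ± 0.05) were higher with KPT. BMF held 518, 456 and 424 with KPT, 295, 299 and 274 with IB and 169 to 180 with DMSO, so that both drugs lay above solvent. BAD (-0.48), BNIP1 (-0.57) and BCL2L11 (-0.19), which encodes BIM, were lower. BCL2L11 held 3541 to 3807 with KPT, 4138 to 4262 with IB and 3488 to 3716 with DMSO, so its difference is on the IB side. HRK (-0.59) lay above solvent with both drugs, at 39.2 to 52.3 with KPT, 59.2 to 77.5 with IB and 21.1 to 22.9 with DMSO. BCL2 held 12883, 12490 and 12715 with KPT, 14650, 14122 and 14917 with IB and 10488 to 10806 with DMSO (-0.20 ± 0.04, adjusted p = 1.49e-05). The calls of BCL2L13 (0.21), BIK (0.38), BAK1 (-0.25) and HRK (-0.59) were each lost in at least 1 other setting. With KPT libraries A and C left out, the adjusted p was 0.338 for BCL2L13 and 0.109 for BAK1; with reads thinned to the shallowest library it was 0.104 for BIK and 0.0602 for HRK. Among single libraries left out, KPT library A ended the calls of BCL2L13 (0.0563) and BAK1 (0.107) and IB library A those of BAK1 (0.0634) and BIK (0.0555). KPT library B ended those of BIK (0.074) and HRK (0.0675), and IB library C that of HRK (0.0833). MCL1 (-0.09), BCL2L1 (-0.07), BCL2L2 (0.24), BID (-0.09) and BCL2L12 (0.04) were not called; MCL1 was called with equal totals (adjusted p = 0.0147).

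In the MYC network, 4 of 11 members were higher with KPT and 3 lower, with a median of -0.003. MYC itself held 6779, 6412 and 6624 with KPT, 6057, 6290 and 5988 with IB and 5168 to 5421 with DMSO. The difference of 0.11 ± 0.04 (adjusted p = 0.0169) was lost in 5 of 21 other settings, with an adjusted p of 0.351 without KPT libraries A and C, 0.0828 without KPT library A, 0.0511 without IB library A and 0.0605 without IB library C. Of the MXD group, proteins that compete with MYC for its partner MAX, MXD1, MXI1 and MXD4 were higher and MXD3 was not called. MXD1 held 400, 359 and 361 with KPT, 89.6, 113 and 127 with IB and 91.4 to 102 with DMSO (1.77 ± 0.11, adjusted p = 7.38e-17). MXI1 held 1180, 1119 and 1149 with KPT, 537, 511 and 529 with IB and 393 to 476 with DMSO (1.13 ± 0.06, adjusted p = 5.06e-18). MXD4 was higher by 0.48. MGA (-0.53), MYCBP2 (-0.38) and MLX (-0.29) were lower, while MLXIP (-0.07), MXD3 (-0.12), MNT (0.11) and MAX (-0.00) were not called.

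Ribosome biogenesis factors and ribosomal proteins lay on opposite sides. Of 59 tested biogenesis factors, which build ribosomes in the nucleolus, 53 were lower with KPT and 1 was higher, with a median of -0.52. DDX21, a nucleolar helicase, held 3703, 3528 and 3601 with KPT, 6766, 6927 and 7511 with IB and 7561 to 7816 with DMSO (-0.97 ± 0.04, adjusted p = 3.95e-22). NOLC1 held 3583, 3762 and 3815 with KPT and 6507, 6688 and 6791 with IB, with DMSO at 6472 to 6658 (-0.84 ± 0.04, adjusted p = 8.78e-21). RRS1 (-0.99), RRP12 (-0.98), NOL6 (-0.89) and RRP1B (-0.86) were lower in the same way, with no overlap between the groups. Of 70 ribosomal protein genes, 64 were higher and 0 lower, with a median of 0.27. RPL37A held 14639, 14865 and 14805 with KPT, 11590, 10849 and 10465 with IB and 10453 to 11031 with DMSO (0.43 ± 0.04, adjusted p = 5.93e-12). RPLP1 was higher by 0.45, RPL12 by 0.39, RPLP0 by 0.37, RPL11 by 0.36 and RPL10 by 0.35. These genes have many pseudogenes that may share their reads, so single values are uncertain.

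Translation initiation factors were lower for 20 of 38 and higher for 5 (median -0.13). EIF2B3, a subunit of the exchange factor of eIF2, was lower by -0.80 ± 0.06, with 366 to 411 against 647 to 712, and EIF4G2 was higher by 0.54 ± 0.04, with 17113 to 18349 against 11668 to 12837. Members higher numbered 3 without KPT library C and 3 without KPT libraries A and C. Aminoacyl-tRNA synthetases, which charge transfer RNAs, were lower for 11 of 19 and higher for 3 (median -0.15), led by the methionine enzyme MARS at -0.82 ± 0.04.

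Polyamine and nucleotide synthesis genes were lower for 16 of 33 and higher for 9 (median -0.14). SRM, the spermidine synthase, held 1614, 1550 and 1656 with KPT, 3147, 2855 and 2805 with IB and 3361 to 3468 with DMSO (-0.87 ± 0.05, adjusted p = 5.69e-18). ODC1, which makes the polyamine precursor putrescine, moved the other way, with 13152, 13010 and 13161 with KPT, 6669, 6928 and 6976 with IB and 8390 to 8660 with DMSO (0.93 ± 0.04, adjusted p = 5.01e-23). Polyamine-degrading SAT1 (0.86) and the ODC1-inhibiting antizyme OAZ2 (0.53) were higher too. CTPS1, which makes CTP, was lower by -0.97 ± 0.05, with 1037 to 1087 against 2067 to 2120, and the purine enzyme ADSL by -0.56. The E-box CACGTG, the letters bound by MYC, MAX and MXD proteins, was sought in the same promoters on both strands. It was present at 18 of 49 matched biogenesis factors (36.7%), 10.8% of all tested genes with a promoter, 13.8% of those lower with KPT and 9.52% of those higher. At 4 of the 18 it lay before the start. The promoter of SRM, a gene outside the biogenesis list, is printed as an example with the E-box before the start.
SRM, chr1:11060019-11060268 of GRCh38.p14, minus strand: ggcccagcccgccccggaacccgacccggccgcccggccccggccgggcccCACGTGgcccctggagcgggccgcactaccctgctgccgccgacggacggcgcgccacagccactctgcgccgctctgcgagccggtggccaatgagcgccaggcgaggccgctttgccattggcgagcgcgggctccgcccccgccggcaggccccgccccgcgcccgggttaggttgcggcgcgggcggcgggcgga
The capitals begin 199 bases before the start.

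**Figure D5:**
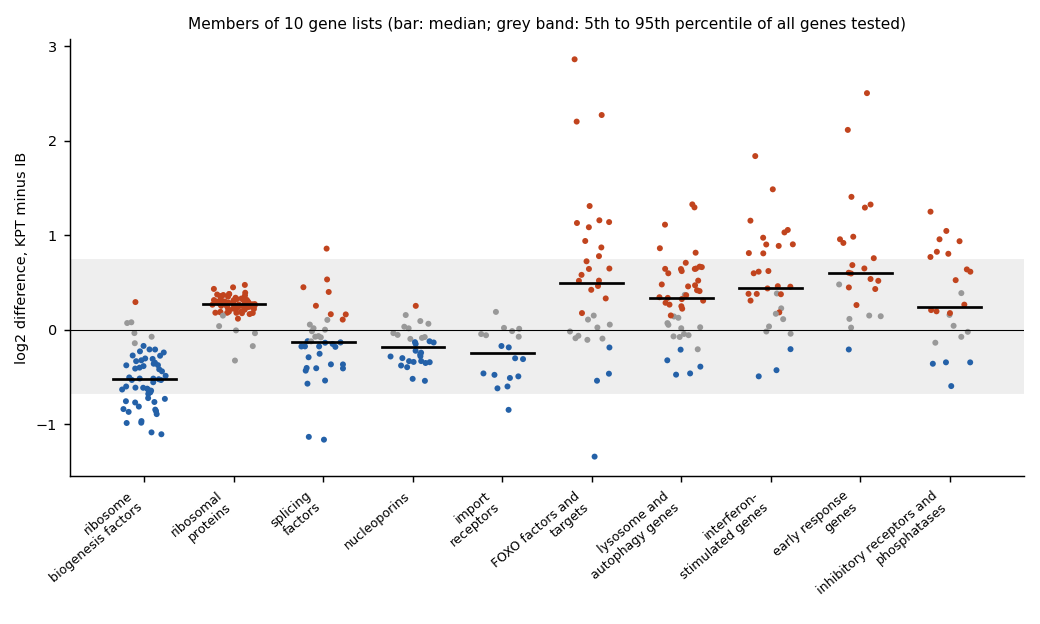
Each point is a tested member of 1 of 10 gene lists, placed by its log2 difference, KPT minus IB; red was called higher, blue lower, grey not called, black bars are medians, and the grey band spans the 5th to the 95th percentile of all genes (-0.68 to 0.73). Ribosomal proteins have a median of 0.27 and reach from -0.33 to 0.47, whereas ribosome biogenesis factors spread from 0.29 down to -1.11.

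In glycolysis and hypoxia, 21 of 37 genes were higher with KPT and 8 lower (median 0.23). HK2, the hexokinase that traps glucose in the cell, held 224, 206 and 227 with KPT, 1053, 1049 and 1081 with IB and 1117 to 1120 with DMSO. It had the largest fall of the named genes (-2.27 ± 0.06, adjusted p = 2.44e-28). The glucose transporter SLC2A1 was lower by -0.48, with 1631 to 1817 against 2301 to 2502. GAPDH was higher by 0.34 and BHLHE40, a repressor that hypoxia induces, by 1.05. NDRG1, a hypoxia and stress gene, held 230, 257 and 277 with KPT, 47.2, 39.1 and 46.7 with IB and a mean of 34.8 with DMSO (2.49 ± 0.17, adjusted p = 5.67e-16).

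Sterol and fatty acid genes were higher for 16 of 36 and lower for 8 (median 0.12). The fatty acid enzymes ACACA (-1.04 ± 0.06), FASN (-0.67 ± 0.06) and ACLY (-0.39 ± 0.04) were lower with KPT. ELOVL6, which lengthens fatty acids, lay on the other side of solvent: it held 194, 230 and 222 with KPT, 230 to 267 with DMSO and 527, 533 and 589 with IB, so the IB group stands apart (-1.35 ± 0.09, adjusted p = 4.59e-16). ABCA1, a cholesterol exporter, was higher by 1.34 ± 0.08, with 556 to 589 against 221 to 229, and INSIG1, a sterol sensor, by 0.57. Amino acid transporters were higher for 6 of 18 and lower for 9 (median -0.07). SLC7A6 (-0.97), SLC1A4 (-0.86) and SLC7A5 (-0.48) were lower. The cystine carrier SLC7A11 was higher by 1.07 ± 0.07, with 454 to 502 against 211 to 251 with IB and 377 to 385 with DMSO, and SLC38A2 was higher by 0.77.

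Each of the 4 stress lists had more members higher than lower. The integrated stress response and amino acid synthesis list had 15 of 31 higher and 8 lower (median 0.12). PPP1R15A, which restores translation by directing dephosphorylation of eIF2, held 497, 551 and 500 with KPT, 224, 184 and 215 with IB and 238 to 252 with DMSO (1.31 ± 0.08, adjusted p = 5.69e-17). DDIT3, which encodes CHOP, was higher by 0.79 and DDIT4, an inhibitor of mTORC1, by 0.52. TRIB3 (-0.53), PYCR1 (-0.68) and MTHFD1L (-0.89) were lower. Among cytosolic chaperones 13 of 34 were higher and 10 lower (median 0.05). HSP90AA1 held 27877, 29071 and 27610 with KPT, 17584, 18324 and 18270 with IB and 20791 to 21913 with DMSO (0.64 ± 0.04, adjusted p = 1.12e-17). DNAJB4 (1.16), BAG3 (0.70) and HSPB1 (0.55) were higher, and the chaperonin subunit CCT6A (-0.36) and HSPA4 (-0.35) lower. Endoplasmic reticulum stress genes were higher for 13 of 33 and lower for 6 (median 0.06), with DERL3 at 1.12 and CANX at 0.44 and with SDF2L1 at -0.58. NRF2 target genes were higher for 13 of 23 and lower for 4 (median 0.22). The ferritin light chain FTL held 9384, 9272 and 9656 with KPT against 4994, 5155 and 4911 with IB and 5399 to 5973 with DMSO (0.91 ± 0.04, adjusted p = 1.68e-21). HMOX1, which breaks down haem, was higher by 0.81, MAFG by 0.79 and FTH1 by 0.70.

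Lysosome and autophagy genes were higher with KPT for 30 of 47 and lower for 5, with a median of 0.34. ULK1, the kinase that starts autophagy, held 568, 581 and 627 with KPT, 262, 227 and 220 with IB and 203 to 235 with DMSO (1.32 ± 0.08, adjusted p = 4.44e-17). MAP1LC3B, the autophagosome protein LC3, held 2059, 1934 and 1863 with KPT and 1097, 1010 and 1116 with IB (0.86 ± 0.05, adjusted p = 1.34e-17). NPC2, which carries cholesterol in lysosomes, was higher by 1.11, the protease CTSS by 0.71, the autophagy receptor SQSTM1 by 0.66 and WIPI2 by 0.64. Without KPT libraries A and C, 3 members were lower. Proteasome subunits were higher for 12 of 31 and lower for 8 (median 0.03), all within 0.32 of 0; those lower numbered 4 to 5 in 5 other settings, among them 5 without KPT library A and 5 without IB library B.

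Interferon-stimulated genes were higher with KPT for 22 of 32 and lower for 3, with a median of 0.44. STAT2, a subunit of the interferon response factor, held 1526, 1408 and 1513 with KPT, 718, 755 and 705 with IB and 607 to 677 with DMSO (1.03 ± 0.06, adjusted p = 9.77e-19). HERC5, the ligase for ISG15, was higher by 1.48 ± 0.10, OAS1 by 1.15 ± 0.10, SAMD9L by 0.89 ± 0.06 and SAMD9 by 0.62 ± 0.06. MHC genes were higher for 11 of 19 and lower for 2 (median 0.41). HLA-DQA1 held 2921, 2770 and 2931 with KPT and 1848, 1867 and 1857 with IB (0.63 ± 0.05, adjusted p = 5.95e-15), and HLA-DPB1 (0.55) and HLA-B (0.54) were higher too. CIITA, the class II transactivator, was lower by -0.59 ± 0.06, with 1053, 1145 and 1136 with KPT, 1661, 1736 and 1630 with IB and 1101 to 1222 with DMSO, so the IB libraries stood above both other groups. HLA genes resemble each other closely, so their reads may be split between them.

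B cell identity factors were lower with KPT for 11 of 24 and higher for 4 (median -0.10). TCF3, a founder of the B cell programme, held 5262, 5152 and 5410 with KPT, 4804 to 5210 with DMSO and 8203, 8190 and 7516 with IB (-0.59 ± 0.05, adjusted p = 4.21e-14). POU2AF1, a coactivator of the OCT factors, was also highest with IB, at 4672 to 4767 against 3299 to 3544 with KPT and 2516 to 2561 with DMSO (-0.48 ± 0.05). IKZF1 and SPIB were lower with both drugs than with DMSO, and lower with KPT than with IB. SPIB held 3162, 3027 and 3005 with KPT, 4012, 4120 and 3671 with IB and 6905 to 7162 with DMSO (-0.36 ± 0.04). IRF8 was lower by -0.78, IKZF3 by -0.71 and PAX5 by -0.37. PAX5 held 2297 to 2511 with KPT, 3045 to 3183 with IB and 2498 to 2732 with DMSO, so the PAX5 difference is on the IB side. Homing and egress receptors were higher for 6 of 18 and lower for 2 (median 0.13), and those higher numbered 3 without KPT libraries A and C. The chemokine receptor CXCR4 was higher by 0.13, a call lost without IB library A (adjusted p = 0.0547), and CD44 by 0.20, lost without KPT libraries A and C (0.224). GPR183, a receptor that positions B cells, was higher by 0.28.

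Splicing factors were lower for 20 of 38 and higher for 8 (median -0.14). SRSF7 held 1456, 1516 and 1464 with KPT, 3160, 3337 and 3248 with IB and 2900 to 3011 with DMSO (-1.13 ± 0.04, adjusted p = 5.33e-23). HNRNPDL was lower by -1.16 ± 0.06, SRSF2 by -0.57, SRSF3 by -0.54 and TRA2B by -0.41. CLK1, a kinase that phosphorylates SR proteins, was higher by 0.86 ± 0.08. Respiratory chain subunits were higher for 27 of 48 and lower for 9 (median 0.14), with COX6C at 0.42 and NDUFS1 at -0.39; those lower numbered 5 with equal upper quartiles and with thinned reads. Replication-dependent histone genes, which are used while DNA is copied and whose messages mostly lack a poly(A) tail, had 16 tested members. Of these, 6 reached the filter mean of 10 only through the KPT libraries, and they were left out after their values were seen. Among the 6, 5 were called higher with KPT and HIST1H2BJ (-0.07) was not called. Of the other 10, 6 were higher and 4 not called (median 0.47). They resemble each other closely, so single values are uncertain, and RNA45S5 moved with them; its part in the result was not tested. HIST1H2AE held 59.2, 27.3 and 47.3 in KPT libraries A, B and C, with the highest values in the RNA45S5-rich pair, and 20.2, 15.6 and 13.8 with IB. Of the 10, 4 were higher without KPT library A, KPT library C or IB library C, and 2 without KPT libraries A and C. HIST1H2BK (0.63) and HIST1H1C (0.51) kept their calls without that pair, but HIST1H2AE (adjusted p = 0.11) and HIST1H2BD (0.121) did not.

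The largest differences over all genes of at least 50 normalized counts included several not yet described. CAPN5, a calpain protease, held 183, 153 and 177 with KPT, 21.2, 15.6 and 11.7 with IB and 14.7, 21.0 and 7.82 with DMSO, a rise of 3.36 ± 0.27 (adjusted p = 1.21e-13). PPDPF held 3667, 3372 and 3721 with KPT, 629, 569 and 569 with IB and 610, 640 and 744 with DMSO (2.60 ± 0.06, adjusted p = 3.13e-30). TUFT1 (2.14), SERPINI1 (2.10), SLC16A6 (2.08), LOC645638 (2.05), LXN (2.03) and KLHL24 (1.78) were higher too. SERPINI1, SLC16A6 and LOC645638 lay below solvent with IB. LOC645638 held 71.3 to 82.2 with KPT, 13.4 to 23.1 with IB and 41.9 to 77.4 with DMSO, so its difference is on the IB side.

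On the lower side, SLC27A4, a fatty acid transporter, held 231, 214 and 235 with KPT and 719, 734 and 637 with IB (-1.61 ± 0.07, adjusted p = 2.23e-21). SH3TC1 held 764, 693 and 812 with KPT, 2216, 2348 and 2033 with IB and 1291 to 1462 with DMSO (-1.54 ± 0.06, adjusted p = 2.05e-23), so solvent lay between the drugs. ADTRP (-1.54) and LINC00341 (-1.39) also had solvent between the drugs. The interleukin-21 receptor IL21R held 50.2, 41.6 and 56.1 with KPT, 149, 133 and 124 with IB and 202 to 211 with DMSO (-1.45 ± 0.13). PPARGC1B, a coactivator of mitochondrial genes, was lower by -1.49, MPV17L2 by -1.48, FBXL18 by -1.51, HIVEP3 by -1.46 and PAQR8 by -1.39. FAM86A (-1.79), ATAD3B (-1.63) and ATAD3A (-1.41) were lower as well, but each has near-identical copies that may share reads, so their values are uncertain.

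NGFR, SLC16A14 and MDK, with means under 50, were chosen after their values were seen. They passed the filter on low values, a mean of 10 over the 12 libraries, only through the KPT libraries and so had to differ; their values are a description. NGFR, the p75 neurotrophin receptor, held 152, 152 and 163 with KPT, 0.963, 2.23 and 0 with IB and 0, 1.91 and 0.782 with DMSO. SLC16A14 held 61.0, 40.4 and 59.8 with KPT and 0.963, 0 and 0 with IB. At these few reads with IB no fold is given for either. MDK, the growth factor midkine, held 68.1, 122 and 76.0 with KPT, 12.5, 4.47 and 2.12 with IB and 2.35 to 8.57 with DMSO.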

How the data were processed

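RNA was sequenced from MAVER cultures after 6 h. Stranded TruSeq libraries were read single-end, per the labels' protocols, which name STAR for alignment, Cufflinks for abundance and DESeq2 for tests of each drug against DMSO. FastQC and hg19 are named in the submitters' processing notes, with no versions. Neither the counting tool and its strand option nor the annotation is given in the sources used here, so overlapping and antisense genes are uncertain.

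The deposited values are the authors' normalized counts, a non-negative signal in which a library's reads are scaled by a single factor. All were whole multiples of the library's smallest positive value within 0.01, so whole reads could be recovered.

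The test was limma 3.58.1 in R 4.3.3 (eBayes with trend) on log2(normalized count + 1), a scale that shrinks the changes of weakly expressed genes. The 12 MAVER libraries (DMSO, IB, KPT and PU, the last not defined in the sources used here) entered a single fit, and genes with a mean of at least 10 were tested. A gene was called at a Benjamini-Hochberg adjusted p under 0.05; "higher" and "lower" are used of called genes, with n = 3 a group. On simulated reads for these 11099 genes the fit recovered 77% of changes of 1.41-fold, 94% at 2-fold and 99.4% at 4-fold, and 7.01% of calls were unchanged genes. Each of the 10 draws changed 200 genes and gave every gene the same spread beyond counting error. In the data 55.2% of genes were called and the spread can differ by gene, so these shares need not hold for this comparison.

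The comparison and the gene lists were chosen with earlier results of these data known. Lists are described by counts and medians, without a test. Named genes are the 15 largest rises and 15 largest falls among calls whose mean reached 50 and whose KPT and IB libraries did not overlap, up to 6 members of each list by p, all members of 6 short lists, and XPO1, BTK and NFKBIA. The exceptions are named as chosen after their values were seen, TXNIP for its promoter letters. FOXO list members named outside the rule are given because they were lower or are FOXO factors. Tested genes with names altered to dates, 17 in all, are not named. A member of the B cell receptor list is counted in it but not reported here. Promoters were matched by symbol for 9019 of the 11099 genes, 673 by an older symbol. The alternatives tried were other pseudocounts, filters and scalings, eBayes without trend, a replicate block, the compared groups alone, edgeR 4.0.16 and DESeq2 1.42.0 on recovered reads, thinned reads and left-out libraries.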

Additional observations from a re-analysis of the deposited data

How the results depend on the processing

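Over 21 other settings, 2205 to 3391 genes were higher with KPT than with IB and 2525 to 3379 lower. At least 73.7% of the calls were kept, the lowest share coming without KPT libraries A and C, which leaves 1 KPT library. The counts of genes at least 2-fold apart followed the filter: 133 higher and 83 lower with a mean of at least 50, and 426 higher and 250 lower with no filter, which tests 9544 and 16640 genes. Leaving out 1 library at a time gave 2753 to 2839 genes higher and 2865 to 2978 lower. The share of calls that were higher was 49%, 45.1% with equal totals and 55% with equal upper quartiles, and no scaling moved the median of all genes beyond 0.04. edgeR gave 2897 higher and 3050 lower, DESeq2 2670 and 2766, and thinned reads 2644 and 2755. With the letter as a replicate block, 2985 were higher and 3104 lower. The letters are not stated to pair the libraries. Deviations of same-letter KPT and IB libraries from their group means correlated at 0.0099, -0.0152 and -0.0602, and those of different letters at -0.0571 to 0.0673. Deviations from means of 3 libraries carry much counting error, so these values cannot decide whether the libraries were paired. Of the 285 named genes, 26 crossed the threshold in some setting, with 60 calls lost, 17 of them without KPT libraries A and C, and 0 reversed; the cause was not tested. Depth limits the KPT values most, at 5374226 reads in the shallowest library.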

Other observations

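The nuclear RNAs MALAT1 and NEAT1, chosen after their values were seen, were higher with KPT. MALAT1, which collects at nuclear speckles, stood at 1600, 1701 and 1908 normalized counts in KPT libraries A, B and C, at 894, 515 and 603 with IB and at 465 to 589 with DMSO (log2 difference 1.41 ± 0.13, KPT minus IB, limma adjusted p = 1.98e-12). NEAT1, the scaffold of paraspeckles, stood at 360, 450 and 437 with KPT, 153, 149 and 167 with IB and 111 to 131 with DMSO (1.40 ± 0.11, adjusted p = 4.28e-14). In both genes every KPT library lies above every IB library, and KPT library B, which is not rich in RNA45S5, lies within or above the range of the other two.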
